A study of Mus musculus with 6 samples.

Results

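The circadian clock genes are the 10 genes Arntl, Clock, Per1, Per2, Per3, Cry1, Cry2, Nr1d1, Nr1d2 and Dbp, taken by symbol from the 23420 genes of a count table of mouse retinal RNA. Each symbol matched 1 gene of the table, and all 10 passed the filter on low counts in every comparison. Retinal RNA was sequenced in 6 libraries, 2 biological replicates in each of 3 groups. The controls had received no treatment, the light group had been exposed to 10000 lux for 1 h and analysed after 4 days, and the minocycline group had the same light exposure with minocycline, an antibiotic of the tetracycline class, injected into the peritoneum at 45 mg/kg each day for 4 days. The sample labels give the strain CD1 for all groups, whereas the methods of the study describe adult albino BALB/cJ mice of both sexes, a brighter light and a schedule with additional injections on the first days. Per the methods, light-exposed mice were dark-adapted beforehand, kept in the dark overnight afterwards and then returned to normal lighting. The time of day at which retinas were taken is not given in the sources used here for any group, and neither is whether controls were dark-adapted. The labels name no vehicle for the light group. In its first RNA measurements at this time the study calls light-exposed mice without minocycline untreated. Its later time course, which included this time, used vehicle-treated mice. A time of sampling that differed between the groups and an effect of treatment therefore cannot be told apart in this design. Both minocycline libraries share a column header that tells no replicate apart, so they are named minocycline A and B.

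The clock of mammalian cells is a feedback loop of transcription. The proteins of Arntl (BMAL1) and Clock bind as a dimer to E-boxes and switch on the Per and Cry genes, whose proteins then inhibit that dimer. The same dimer drives Nr1d1 and Nr1d2, which encode the REV-ERB repressors of Arntl and act at ROR elements, and Dbp, an activator at D-boxes. In most tissues the RNA of Arntl therefore peaks at the opposite phase to Dbp, Nr1d1 and the Per genes, and the levels of these transcripts depend on the time of day at which a tissue is taken. The retina holds a clock of its own, which is linked to dopamine, melatonin and the light response.

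Promoters of 4 clock genes are shown because they carry the elements through which the loop acts on its own genes, Arntl among them. Sequences are from RefSeq (GRCm38.p6), on the strand of the gene, 5′ to 3′, with 250 bases before and 50 bases after an annotated start. Capitals mark the motifs, which were searched on both strands.
Arntl: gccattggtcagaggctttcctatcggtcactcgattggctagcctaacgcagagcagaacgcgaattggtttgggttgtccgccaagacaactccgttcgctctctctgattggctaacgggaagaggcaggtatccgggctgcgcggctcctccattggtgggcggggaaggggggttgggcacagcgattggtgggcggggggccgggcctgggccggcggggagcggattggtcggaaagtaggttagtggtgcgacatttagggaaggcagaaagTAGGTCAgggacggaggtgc
Per1: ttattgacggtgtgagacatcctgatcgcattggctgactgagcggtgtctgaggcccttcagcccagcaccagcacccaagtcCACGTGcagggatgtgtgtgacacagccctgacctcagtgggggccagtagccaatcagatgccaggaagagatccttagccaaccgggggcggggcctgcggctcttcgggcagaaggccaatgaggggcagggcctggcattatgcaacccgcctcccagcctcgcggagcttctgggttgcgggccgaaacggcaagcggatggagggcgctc
Cry1: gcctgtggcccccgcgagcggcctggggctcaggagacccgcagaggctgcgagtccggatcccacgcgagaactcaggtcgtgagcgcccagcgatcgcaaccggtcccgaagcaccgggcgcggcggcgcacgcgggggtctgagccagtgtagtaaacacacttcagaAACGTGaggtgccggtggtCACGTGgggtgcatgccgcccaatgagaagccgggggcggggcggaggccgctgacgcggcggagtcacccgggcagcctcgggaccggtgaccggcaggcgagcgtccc
Per3: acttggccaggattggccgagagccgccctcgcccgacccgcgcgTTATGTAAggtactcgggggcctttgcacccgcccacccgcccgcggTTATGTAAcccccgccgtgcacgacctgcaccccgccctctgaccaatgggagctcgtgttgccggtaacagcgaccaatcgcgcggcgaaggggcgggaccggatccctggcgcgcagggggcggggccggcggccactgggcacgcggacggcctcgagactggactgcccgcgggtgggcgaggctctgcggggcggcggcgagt
The Arntl window (chr7:113207261-113207560, plus strand) held the ROR element core TAGGTCA 30 bases after the start, a motif found in 2.61% of 32851 promoters of the same length. A second form of this core, TGGGTCA, was found in 3.98% of promoters and in 0 windows of the clock genes. The Per1 window (chr11:69098699-69098998, plus strand) held the E-box CACGTG 166 bases before the start. The Cry1 window (chr10:85185005-85185304, minus strand) held this E-box 60 bases before the start and the variant CACGTT, read on the other strand, 79 bases before it. The E-box occurred in 7.15% and the variant in 4.68% of all promoters, and neither overlapped another motif. The Per3 window (chr4:151044616-151044915, minus strand) held the D-box TTATGTAA at 205 and 158 bases before the start, and 0.938% of all promoters held at least 1. Of the 9 clock genes with an entry in the promoter table, 6 held at least 1 of these motifs, the others being Cry2 and Nr1d1, each with 1 copy of the variant, beside 20.2% of all genes with an entry. Counted by window, 6 of their 13 held a motif, beside 18.0% of all promoters, and a further annotated window of Arntl and of Per1 held 0. A match describes these letters in this window and is no measure of binding.

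Library totals ranged from 15205930 to 22856922 counts, and the clock genes themselves held from 254 counts, for Per2 in control 1, to 6005 counts. Levels are given as CPM, counts per 1000000 of the library total after TMM scaling, and groups as mean ± SD with n = 2 libraries. Control 1 held 77778 counts of Xist, the transcript that silences an X chromosome in female cells, where the other libraries held 25 to 188. The summed level of 6 rod markers was 70110 to 89560 CPM in control, 36940 to 52300 CPM in light and 76830 to 82180 CPM in minocycline libraries, and that of 6 microglial markers was 35.6 to 41.5, 237 to 735 and 36.6 to 74.5 CPM. The retina label was matched by rod markers at high levels in every library, with 0 of the 6 at 0 counts. The 4 corneal epithelium markers summed to 0.703 to 13.9 CPM in control and light libraries and to 176 to 243 CPM in minocycline libraries. The part of these cell types, and of the sex of control 1, in the levels of the clock genes was not tested beyond the values given here.

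Light-exposed retinas held less RNA of Arntl than control retinas, at 63.7% of the control level. This was the 1 clock gene of 10 that passed the test in that comparison, beside 11.3% of all genes. The call was lost with scaling by total counts and without control 1, control 2 or light 2. Per2 and Dbp lay on the opposite side, at 1.62-fold and 1.45-fold of control without passing the test. With minocycline the levels of Arntl and Per2 lay near those of control. With the main settings of edgeR no clock gene passed the test between minocycline and light or control, beside 0.0542% and 0.162% of all genes. Between minocycline and light, Per2 was called by edgeR without a filter and by DESeq2, beside 3.97% and 8.17% of all genes.

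**Figure D1:**
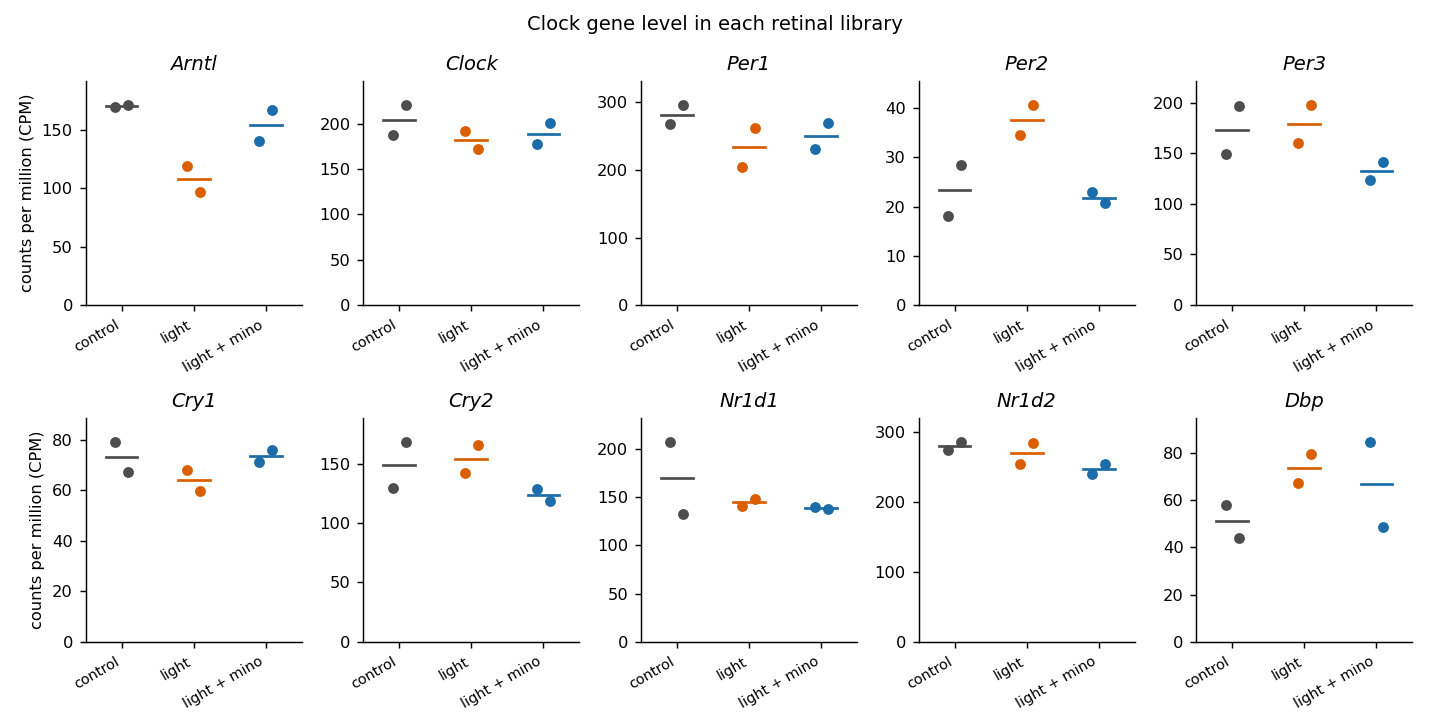
Level of each clock gene in CPM (vertical axes, each starting at 0) in control, light and light with minocycline libraries. Each point is 1 library and each bar the mean of 2, and both light libraries lie below the other 4 for Arntl and above the other 4 for Per2.

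Arntl (chr7:113207465-113314126, GRCm38, plus strand) encodes BMAL1, the partner of CLOCK in the activating dimer. Its level was 169 and 171 CPM in control 1 and 2, 119 and 96.8 CPM in light 1 and 2, and 140.0 and 167 CPM in minocycline A and B. Both light libraries lay below every other library, the lowest being light 2, and minocycline A lay between the light libraries and the controls. The means were 170.1 ± 1.13 CPM in control, 107.6 ± 15.4 CPM in light and 153.5 ± 19.0 CPM in minocycline retinas. Between light and control the log2 fold change was -0.65 (standard error 0.16, 95% confidence interval -0.99 to -0.31), with an adjusted p of 0.0263 (edgeR, quasi-likelihood F test, Benjamini-Hochberg over 14349 genes). The log2 fold change stayed between -0.81 and -0.51 without each library in turn. The call was lost in edgeR without control 1, control 2 or light 2, where a smaller share of all genes was called as well. It was also lost when libraries were scaled by their total counts in place of TMM, with a log2 fold change of -0.42 and an adjusted p of 0.0873 in edgeR, a scaling that moved the median of all genes to 0.24. Rod markers were lower in the same 2 libraries, and their part in the level of Arntl was not tested. In RNA of whole retinas, fewer cells of a type and less RNA per cell cannot be told apart.

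Between minocycline and light, the log2 fold change of Arntl was 0.53 (95% confidence interval 0.13 to 0.92), with an unadjusted p of 0.0159 and an adjusted p of 0.142 in edgeR. Between minocycline and control it was -0.10 (95% confidence interval -0.48 to 0.27, adjusted p 0.849 in edgeR). Clock (chr5:76209868-76304792, minus strand) encodes the other subunit of the dimer. Its level was 187 and 220.4 CPM in the controls, 191 and 172 CPM in light 1 and 2, and 177 and 201 CPM in minocycline A and B. The values of the 3 groups overlapped. The log2 fold change of Clock between light and control was -0.16 (95% confidence interval -0.50 to 0.19, adjusted p 0.554 in edgeR), and its sign turned, to 0.08, with scaling by total counts.

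Of the 10 clock genes, 1 was called between light and control (Arntl, lower), beside 11.3% of all 14349 genes tested and 3.80% called lower. An unadjusted p under 0.05 was reached by 3 of the 10, Arntl, Per2 and Dbp, beside 28.9% of all genes. The libraries of the groups did not overlap for 4 of the 10, with Per2 and Dbp higher and Arntl and Per1 lower after light, beside 60.9% of all genes, 30.1% higher and 30.8% lower. Counted in either direction, these shares lay near or below those of all genes, while the 1 call in 10 among lower genes rests on Arntl alone. The median size of the log2 fold change was likewise 0.20 over the clock genes and 0.30 over all genes tested, and 0 of the 10 reached a log2 fold change of 2 in size, as 2.92% of all genes did with a call.

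**Figure D2:**
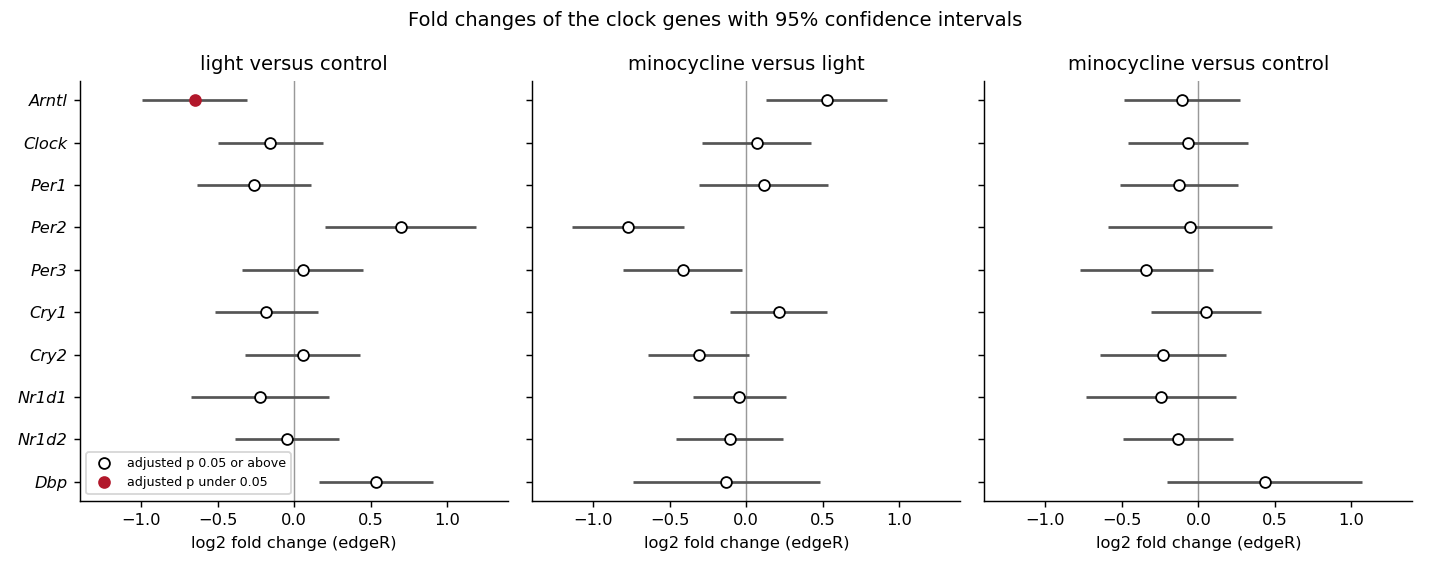
Fitted log2 fold change of each clock gene (horizontal axes) with its 95% confidence interval for the 3 pairs of groups. The filled point marks the 1 call, Arntl at -0.65 between light and control, and the intervals of Per2 lie on opposite sides of 0 in the first and second panels, which share the light libraries.

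The Per genes encode the PERIOD proteins, which inhibit the dimer together with the cryptochromes. Per2 (chr1:91415982-91459324, minus strand) is known for its response to light and to steroid hormones as well as to the clock. Its level was 18.1 and 28.5 CPM in control 1 and 2, 34.5 and 40.7 CPM in light 1 and 2, and 23 and 20.7 CPM in minocycline A and B. Both light libraries lay above the other 4, and both minocycline libraries lay between the controls. The log2 fold change between light and control was 0.70 (standard error 0.22, 95% confidence interval 0.20 to 1.19), with an unadjusted p of 0.0105 and an adjusted p of 0.0701 in edgeR. Without control 1, the lowest library for Per2, the log2 fold change was 0.40, and without control 2 it was 1.06, with adjusted p-values of 0.203 and 0.0762 in edgeR. Without light 1 it was 0.81 and past the threshold, with an adjusted p of 0.0340 in edgeR, and without light 2 it was 0.57 (adjusted p 0.314 in edgeR). With scaling by total counts it was 0.93 (adjusted p 0.0360 in edgeR). With minocycline, Per2 was at 58.5% of the light level, a log2 fold change of -0.77 (standard error 0.16, 95% confidence interval -1.14 to -0.41). Its adjusted p was 0.0709 in edgeR and 0.00860 in DESeq2, and over the alternatives in edgeR that keep every library it ranged from 0.0260 to 0.0986. Without light 1 it was 0.0478 and without light 2 it was 0.410 in edgeR. Between minocycline and control the log2 fold change of Per2 was -0.05 (95% confidence interval -0.59 to 0.48, adjusted p 0.948 in edgeR). The fits of light with control and of minocycline with light share the light libraries, so their opposite signs are not independent of each other.

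Per1 (chr11:69095217-69109960, plus strand) had 268 and 296 CPM in the controls, 205 and 262 CPM in light 1 and 2, and 231 and 270 CPM in minocycline A and B. The light libraries lay below both controls, light 2 by only a small margin. Its log2 fold change between light and control was -0.26 (95% confidence interval -0.64 to 0.11, adjusted p 0.339 in edgeR). Per3 (chr4:151003652-151044665, minus strand), the period gene least needed for the loop itself, had 149 and 197 CPM in the controls, 160 and 198 CPM in light 1 and 2, and 124 and 142 CPM in minocycline A and B. Both minocycline libraries lay below the other 4. Against light, the log2 fold change of Per3 with minocycline was -0.42 (95% confidence interval -0.80 to -0.03), with an unadjusted p of 0.0385 and an adjusted p of 0.208 in edgeR. Against control it was -0.34 (95% confidence interval -0.77 to 0.09, adjusted p 0.742 in edgeR).

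The cryptochromes are the second class of inhibitors. Cry1 (chr10:85131700-85185064, minus strand) had 79.2 and 67.1 CPM in the controls, 68.2 and 59.8 CPM in light 1 and 2, and 71.2 and 75.8 CPM in minocycline A and B. Cry2 (chr2:92403646-92434043, minus strand) had 130 and 168 CPM in the controls, 143 and 166 CPM in light 1 and 2, and 128 and 118 CPM in minocycline A and B. For both genes the control and light libraries overlapped, and for Cry2 the minocycline libraries were the lowest of the 6. The log2 fold change between light and control was -0.18 for Cry1 (95% confidence interval -0.52 to 0.16, adjusted p 0.467 in edgeR), which turned to 0.05 with scaling by total counts, and 0.06 for Cry2 (95% confidence interval -0.32 to 0.43, adjusted p 0.856 in edgeR). Between minocycline and light it was 0.21 for Cry1 and -0.31 for Cry2, with adjusted p-values of 0.425 and 0.261 in edgeR. Exons of Cry2 overlap those of D930015M05Rik on the other strand by 295 bases. That gene held 1 to 10 counts in a library, where Cry2 held 1819 to 3499.

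Nr1d1 and Nr1d2 encode REV-ERBα and REV-ERBβ, the repressors of the second loop, and Dbp encodes a transcription factor that the dimer drives as well. Nr1d1 (chr11:98767932-98775333, minus strand) had 207 and 132 CPM in control 1 and 2, 141 and 148 CPM in light 1 and 2, and 140.1 and 138 CPM in minocycline A and B. Control 1 stood above the other 5 libraries, which lay close together. The log2 fold change between light and control was -0.22 (95% confidence interval -0.67 to 0.23, adjusted p 0.508 in edgeR), and it turned to 0.13 without control 1 and to 0.02 with scaling by total counts. Nr1d2 (chr14:18204054-18239127, minus strand) had 274 and 287 CPM in the controls, 255 and 285 CPM in light 1 and 2, and 241 and 255 CPM in minocycline A and B, the narrowest range of the 10 genes. Its log2 fold change between light and control was -0.05 (95% confidence interval -0.39 to 0.29, adjusted p 0.871 in edgeR), and 0.19 with scaling by total counts.

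Dbp (chr7:45705088-45710203, plus strand) had 58.0 and 44.1 CPM in control 1 and 2, 67.5 and 79.5 CPM in light 1 and 2, and 84.8 and 48.8 CPM in minocycline A and B. Both light libraries lay above both controls, while the minocycline libraries held the highest level of all and one within the range of the controls. The log2 fold change between light and control was 0.54 (standard error 0.17, 95% confidence interval 0.16 to 0.91), with an unadjusted p of 0.00913 and an adjusted p of 0.0643 in edgeR. It was 0.35 without control 2 and 0.73 without control 1, with adjusted p-values of 0.234 and 0.0668 in edgeR, and 0.78 with scaling by total counts, with an adjusted p of 0.0284. Between minocycline and light it was -0.13 (95% confidence interval -0.74 to 0.48, adjusted p 0.816 in edgeR). Reads of Dbp and Nr1d1 may be mixed with those of neighbours, since exons of Dbp overlap Sphk2 by 539 bases and exons of Nr1d1 overlap Thra by 263 bases, both on opposite strands, and the use of the strand in counting is not given in the sources used here. Sphk2 lay between 20.1 and 26.3 CPM in all libraries, with a log2 fold change between light and control of -0.06 that turned to 0.18 with scaling by total counts. Thra, a thyroid hormone receptor gene, had 119 and 96.8 CPM in the controls, 137 and 142 CPM in light 1 and 2, and 149 and 105 CPM in minocycline A and B, with a log2 fold change between light and control of 0.39 (adjusted p 0.127 in edgeR). An antisense gene of the annotation that overlaps Arntl by 33 bases, Gm45355, was not analysed here.

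Between minocycline and light, 0 of the 10 clock genes were called with the main settings of edgeR, beside 0.0542% of 14750 genes tested. An unadjusted p under 0.05 was reached by 3, Arntl, Per2 and Per3, beside 21.1% of all genes, and DESeq2 called 1, Per2, beside 8.17% of all genes with an adjusted p in that tool. The libraries did not overlap for 6 of the 10, with Arntl and Cry1 higher and Per2, Per3, Cry2 and Nr1d1 lower with minocycline, beside 54.9% of all genes, 26.8% higher and 28.1% lower. Between minocycline and control, 0 were called in edgeR and 0 reached an unadjusted p under 0.05, beside 0.162% of 14181 genes called and 7.01% with an unadjusted p under 0.05. DESeq2 called 0 of the 10 as well, beside 1.09% of all genes. The libraries did not overlap for 4 of the 10, Arntl, Per3, Cry2 and Nr1d2, all lower with minocycline, beside 40.0% of all genes in either direction and 24.5% in that direction. In a test across all 3 groups in 1 fit, 0 clock genes were called with the main settings of edgeR, beside 5.29% of 14713 genes. The adjusted p-values in edgeR were 0.0740 for Arntl and 0.0884 for Per2. These were the 2 clock genes with an unadjusted p under 0.05 in that test, and DESeq2's likelihood ratio test called both, beside 12.0% of all genes. With 2 libraries a group, a p above the threshold does not show that levels were equal, and the intervals printed here give the differences that remain possible.

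In a tissue with a running clock, genes of opposite phase shift against each other with the time of sampling. The mean centred log2 CPM of Dbp, Nr1d1, Nr1d2, Per1, Per2 and Per3 minus that of Arntl, Clock and Cry1 was therefore taken in each library, a difference in which the scaling of a library cancels. It was -0.16 and -0.13 in control 1 and 2, 0.10 and 0.54 in light 1 and 2, and in minocycline A and B it was -0.05 and -0.30. The 4 control and minocycline libraries lay below 0 and both light libraries above it. Without Nr1d1 and Dbp, which overlap other genes, control 2 turned to 0.044 and control 1 lay at -0.27, while both light libraries stayed above 0, at 0.098 and 0.57, and both minocycline libraries below it, at -0.18 and -0.27. The groups were at -0.14 ± 0.024, 0.32 ± 0.31 and -0.18 ± 0.18 (SD, n = 2 each). Light 2 lay farthest from the rest, with the Dbp, Nr1d and Per genes at 0.24 and Arntl, Clock and Cry1 at -0.30 relative to their means over the 6 libraries. The Dbp, Nr1d and Per genes did not all move the same way between light and control. Their log2 fold changes were 0.70 for Per2, 0.54 for Dbp and 0.055 for Per3. Those of Per1, Nr1d1 and Nr1d2 were -0.26, -0.22 and -0.05, below 0 as for Arntl, Clock and Cry1. Light 2 was also the library with the highest summed level of microglial markers and the lowest of rod markers. Time of sampling, treatment and cell composition cannot be told apart in this value. No test is given for it, since its genes were chosen with earlier results of these data known.

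**Figure D3:**
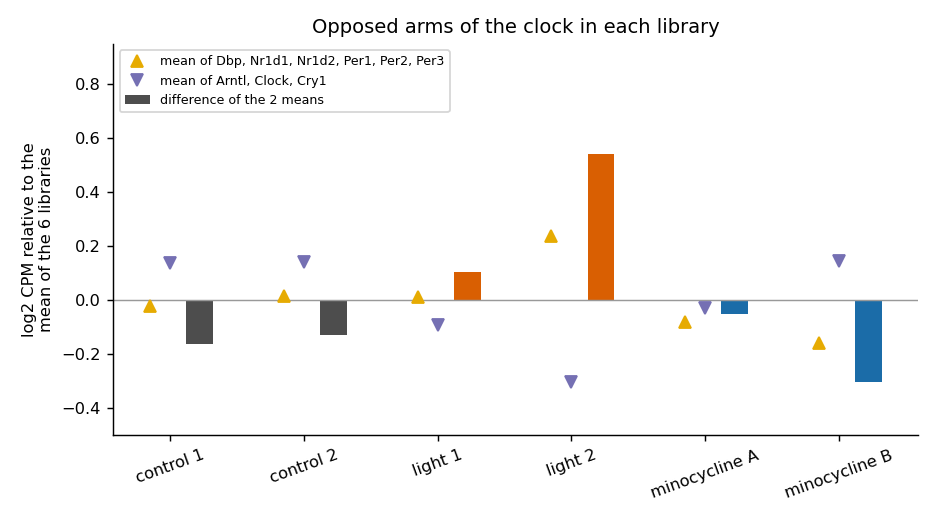
Mean log2 CPM of the opposed clock genes in each library relative to the mean of the 6 libraries (triangles), and the difference of both means (bars). The difference is -0.16 and -0.13 in the controls, 0.10 and 0.54 in the light libraries, and -0.05 and -0.30 in the minocycline libraries.

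The clock genes also differed between libraries of 1 group. Between the controls, the log2 CPM of control 1 was above that of control 2 by 0.65 for Nr1d1, 0.39 for Dbp and 0.24 for Cry1, while control 2 was above control 1 for Per2, Per3 and Cry2, at differences of -0.65, -0.40 and -0.38. For Arntl the difference was -0.01. Genes of the same arm thus stood on opposite sides in control 1, where Nr1d1 and Dbp were high and the Per genes low, and the difference of the arms was nearly equal in both controls. The median size of the difference between controls was 0.31 over the clock genes and 0.25 over 14713 genes. Between light 1 and 2 these medians were 0.23 and 0.18, with Per1 farthest apart at 0.36. Between minocycline A and B they were 0.17 and 0.22, with Dbp farthest apart at 0.80, a gap reached by 9.88% of all genes. Over the 6 libraries, Per2 had the widest range of log2 CPM, 1.16, followed by Dbp at 0.94 and Arntl at 0.82, and Nr1d2 had the narrowest at 0.25.

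Levels of the clock genes were compared with each other as CPM per kilobase of exon, joined over all annotated transcripts of a gene. In control retinas Nr1d1, Nr1d2 and Per1 were highest, at 55.2 ± 17.3, 51.9 ± 1.6 and 50.1 ± 3.54 CPM per kilobase, and their libraries overlapped. Cry2, Arntl, Cry1, Per3, Dbp and Clock followed in that order from 23.6 ± 4.32 to 14.8 ± 1.72 CPM per kilobase, each overlapping the next. Per2 was lowest, at 3.98 ± 1.26 CPM per kilobase, apart from the rest. In light retinas Per2 was again the lowest, at 6.42 ± 0.739 CPM per kilobase, and Nr1d2, Nr1d1 and Per1 again the highest. Arntl stood in place 5 of the order in control and in place 8 after light, where its libraries overlapped those of Clock and lay below those of Per3. Dbp stood in place 8 in control and in place 4 in light and in minocycline retinas, but its light libraries overlapped those of Cry2, and its minocycline libraries, at 16.3 and 28.3 CPM per kilobase, enclosed those of Cry1, Arntl and Cry2.

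For the gene with the widest range, Per2, and for Arntl, the genes with the most similar pattern over the 6 libraries were taken by the smallest root mean square difference of centred log2 CPM among 14712 genes. For Arntl these were Icmt at 0.02, Sp4 at 0.02, Pex5l at 0.03, Wdr47 at 0.03 and Tulp1 at 0.03. Tulp1 encodes a protein of photoreceptors, and its level was 1737 and 1815 CPM in the controls, 1232 and 1008 CPM in light 1 and 2, and 1417 and 1648 CPM in minocycline A and B. The summed rod markers, at 89560 and 70110, 52300 and 36940, and 76830 and 82180 CPM in the same order, were likewise lowest in the light libraries, while control 1 lay above control 2 in them and not in Arntl. For Per2 the nearest genes were Stk10 at 0.05, Dlg5 at 0.06, Tanc2 at 0.07, Limch1 at 0.08 and Zfp429 at 0.09. These genes were compared over the same 6 libraries and scaling, and no test was made.

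**Figure D4:**
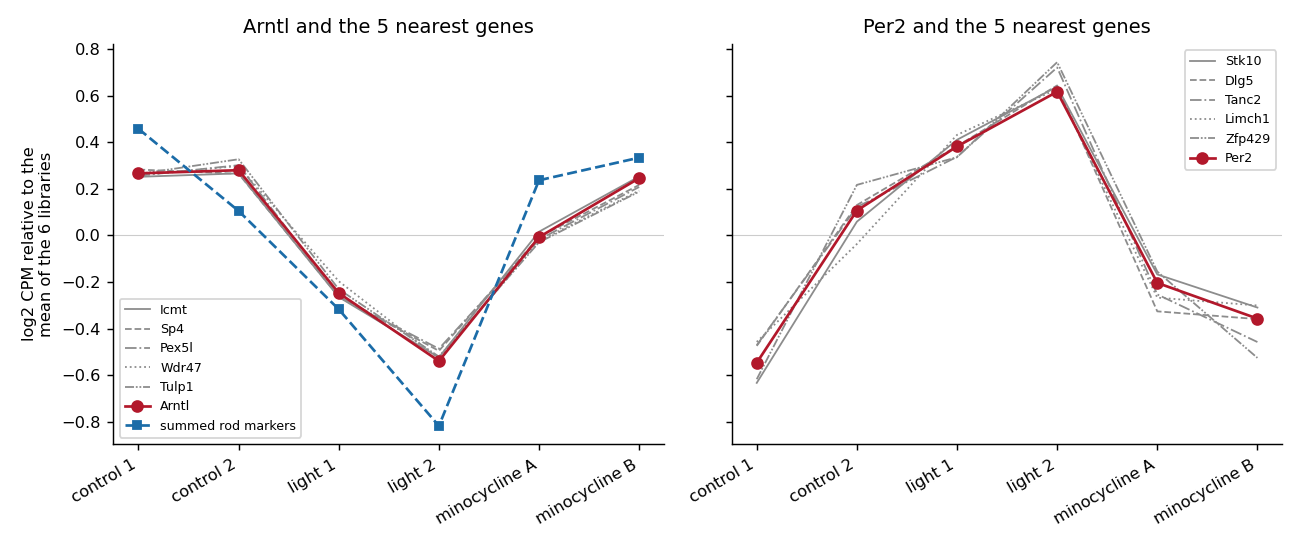
Log2 CPM of Arntl (left) and Per2 (right) in each library relative to the mean of the 6 libraries, with the 5 genes of most similar pattern (grey) and, for Arntl, the summed rod markers (squares). Arntl is lowest in light 2 and Per2 highest in light 2, with a root mean square difference of at most 0.09 to each grey line.

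Beyond the 10 clock genes, 43 further genes of the pathway were counted in 6 lists, and 39 of them were tested. Between light and control, 4 were called higher and 3 lower in edgeR, beside 7.52% and 3.80% of all genes. Between minocycline and light and between minocycline and control, 0 were called in edgeR, with 11 and 3 of the 39 at an unadjusted p under 0.05, beside 21.1% and 7.01% of all genes. DESeq2 called 9 of 39 between minocycline and light, beside 8.17% of all genes, and 0 of 41 between minocycline and control, beside 1.09%. Other settings of edgeR gave calls between minocycline and light: 4 with all 6 libraries in 1 fit (3.32% of all genes), 6 without a filter (3.97%), 4 without light 1 (5.08%) and 3 without minocycline A (1.55%). Most of the 7 calls between light and control were lost without control 1, control 2 or light 2. In those fits a smaller share of all genes was called as well. The direction of each of the 7 stayed the same under every alternative.

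Of the 9 core and loop genes, 1 was called lower after light and 0 higher in edgeR, beside 3.80% and 7.52% of all genes, with a median log2 fold change of -0.29 beside 0.00 over all genes. The gene was Rora, which encodes an activator of Arntl at the ROR element and is made in several retinal neurons. It had 71.5 and 61.5 CPM in the controls, 41.6 and 36.4 CPM in light 1 and 2, and 64.2 and 72.4 CPM in minocycline A and B. Both light libraries were below the other 4, as for Arntl. Its log2 fold change was -0.76 between light and control (adjusted p 0.0179 in edgeR) and 0.82 between minocycline and light (adjusted p 0.0698 in edgeR and 8.47e-04 in DESeq2). Npas2, which can stand in for Clock, was near the limit of use at 1.49 to 2.23 CPM. Ciart, which encodes a repressor of the loop, had 38.9 and 22.8 CPM in control 1 and 2, 18.1 and 25.9 CPM in light 1 and 2, and 26.7 and 23.8 CPM in minocycline A and B. As with Nr1d1, control 1 was the highest of the 6 libraries.

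The list of 3 bZIP genes, Tef and Hlf of the family of Dbp and their competitor Nfil3, held 0 calls after light in edgeR and in DESeq2, beside 11.3% and 12.9% of all genes, and 1 of the 3 had an unadjusted p under 0.05 in edgeR, beside 28.9%. Tef had 254 and 262 CPM in the controls, 297 and 350 CPM in light 1 and 2, and 290 and 261 CPM in minocycline A and B. Hlf had 126 and 98.3, 134 and 150, and 147 and 114 CPM in the same order. Tef and Hlf are activators like Dbp, and in the light libraries all 3 lay above both controls, as did 30.1% of all genes, with 0 of the 3 called. The log2 fold changes were 0.33 for Tef and 0.35 for Hlf (adjusted p 0.194 and 0.192 in edgeR). With a library left out they ranged from 0.21 (without light 2) to 0.45 for Tef and from 0.17 (without control 2) to 0.53 (without control 1) for Hlf. With scaling by total counts Tef was called, at 0.57 (adjusted p 0.0449 in edgeR), as was Dbp, beside 14.4% of all genes. Nfil3, which represses at the same D-box, had 27.1 and 16.8 CPM in the controls, 11.9 and 14.5 CPM in light 1 and 2, and 21.0 and 29.8 CPM in minocycline A and B. It lay below both controls in the light libraries, with a log2 fold change of -0.71 (adjusted p 0.0897 in edgeR) that was -0.35 without control 1 and -1.02 without control 2. Nfil3 was called without a filter and with the replicate block (adjusted p 0.0414 and 0.0407 in edgeR), beside 12.6% and 17.6% of all genes. The block joins libraries by replicate number only, which pairs no samples by the labels. Minocycline A was the higher of its pair for Dbp, Hlf and Tef and the lower for Nfil3.

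The 8 modifiers of clock proteins held 0 calls after light in edgeR and in DESeq2, beside 11.3% and 12.9% of all genes, with a median log2 fold change of 0.02. With scaling by total counts 1 of the 8, Csnk1e, was called higher, beside 14.4% of all genes called in either direction. Fbxl21, for a ligase of cryptochromes, lay between 0.688 and 2.97 CPM, and Btrc, for a ligase of PERIOD proteins, was at 176 and 205 CPM in the controls and 151 and 130 CPM in light 1 and 2 (log2 fold change -0.43, adjusted p 0.0987 in edgeR). Usp2, which encodes a deubiquitinase under clock control, had 297 and 461 CPM in control 1 and 2 and 317 to 353 CPM in the other 4 libraries, so that the controls enclosed them. Of the 4 clock outputs, 2 were called higher after light and 0 lower in edgeR, beside 7.52% and 3.80% of all genes. Lonrf3, a gene of a ring finger protein, had 14.1 and 15.4 CPM in the controls, 30.9 and 44.5 CPM in light 1 and 2, and 17.0 and 17.8 CPM in minocycline A and B, with a log2 fold change after light of 1.36 (adjusted p 0.00899 in edgeR). Tspan4, a gene of the tetraspanin family, had 24.4 and 26.8, 35.9 and 47.1, and 28.7 and 30.5 CPM in the same order, with a log2 fold change of 0.71 (adjusted p 0.0327 in edgeR). In both genes light 2 was the highest library.

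Of the 12 dopamine, melatonin and light-input genes, 8 were tested. In edgeR 0 were called after light and in DESeq2 1, Adcy1, beside 11.3% and 12.9% of all genes, with a median log2 fold change of -0.07. Adcy1, a cyclase that makes cyclic AMP in photoreceptors under clock control, had 980.3 and 1404 CPM in control 1 and 2, 858 and 684 CPM in light 1 and 2, and 1016 and 1150 CPM in minocycline A and B. Both light libraries were the lowest, with a log2 fold change of -0.62 (adjusted p 0.105 in edgeR and 0.0169 in DESeq2) that was -0.34 without control 2 (adjusted p 0.437 in edgeR). Adcyap1r1, the receptor gene of the peptide PACAP, lay between 2.06 and 4.77 CPM, with a log2 fold change of 0.67 (adjusted p 0.246 in edgeR). The melatonin genes were at the limit of detection. Asmt and Mtnr1b had 0 counts in every library, which allows up to 0.131 to 0.214 CPM at 3 counts a library, and Aanat had 2 to 13 counts.

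The 7 glucocorticoid-responsive genes were included because steroid hormones also act on the Per genes. After light, 2 were called higher and 2 lower in edgeR, beside 7.52% and 3.80% of all genes, with a median log2 fold change of 0.05. Zbtb16 had 4.28 and 2.88 CPM in the controls, 12.1 and 19.5 CPM in light 1 and 2, and 6.34 and 4.34 CPM in minocycline A and B, with a log2 fold change of 2.15 (adjusted p 0.00860 in edgeR). Fkbp5 had 31.0 and 30.1, 47.7 and 62.4, and 35.4 and 28.0 CPM in the same order, with a log2 fold change of 0.86 (adjusted p 0.0161 in edgeR). Sgk1, which steroid hormones induce in many tissues, was called lower in edgeR, at 868 and 695 CPM in the controls and 484 and 443 CPM in light 1 and 2 (log2 fold change -0.74, adjusted p 0.0323 in edgeR). Nr3c1, the gene of the glucocorticoid receptor itself, was called lower as well, with 195 and 139 CPM in the controls and 102 and 94.0 CPM in light 1 and 2 (log2 fold change -0.76, adjusted p 0.0245 in edgeR). With scaling by total counts both calls were lost, with adjusted p-values of 0.0854 for Sgk1 and 0.0806 for Nr3c1 in edgeR, and Tsc22d3 was called higher, so that 3 genes of the list were higher and 0 lower. Rod markers were lowest in the light libraries. The summed level of 5 Mueller glia markers was 1502 to 2254 CPM in control, 2429 to 2727 CPM in light and 2086 to 2683 CPM in minocycline libraries. Both light libraries lay above both controls and overlapped those of minocycline. Of the 5 markers, 2 were called higher after light in edgeR, beside 7.52% of all genes. Their median log2 fold change was 1.1 after light and -0.745 between minocycline and light. The part of these cells in the levels was not tested.

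**Figure D5:**
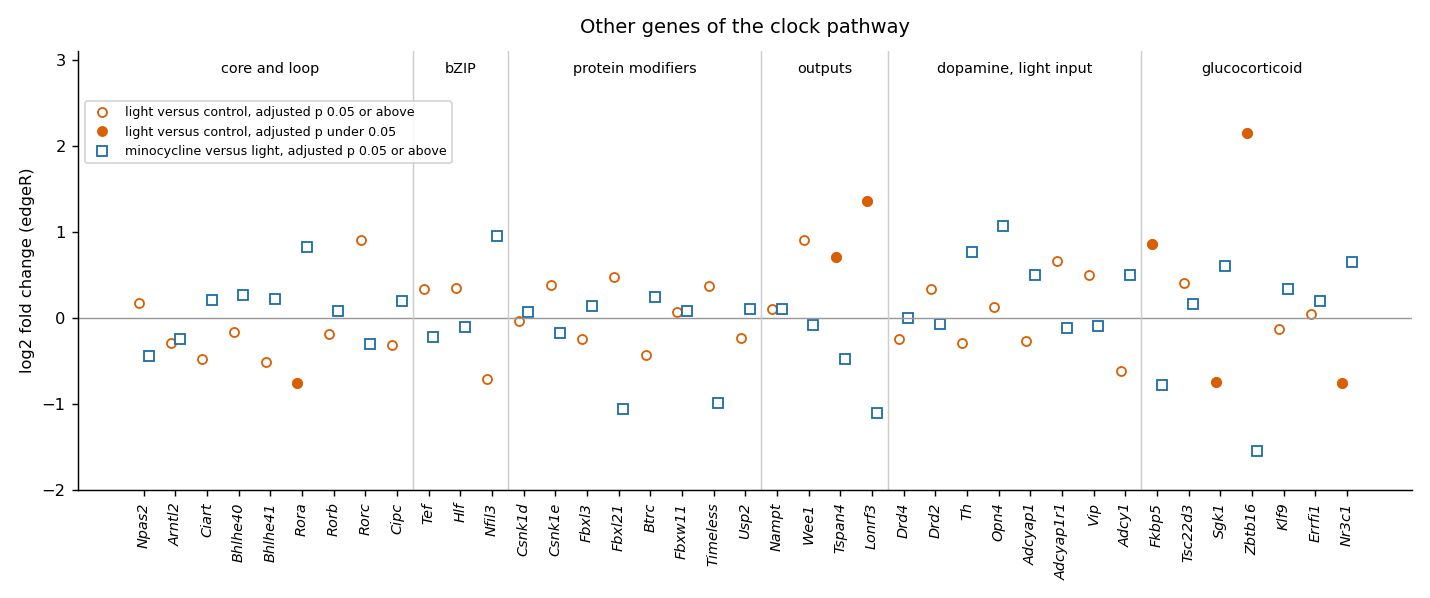
Fitted log2 fold changes of the 39 tested genes of the clock pathway, by list, between light and control (circles) and between minocycline and light (squares). Filled circles mark the 7 genes called between light and control, 4 higher and 3 lower, and no square is filled.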

How the data were processed

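Retinal RNA of 2 control, 2 light-exposed and 2 light-exposed and minocycline-treated samples was measured by RNA-seq. The authors prepared stranded mRNA libraries, aligned reads to mm10 with STAR in the RNA Express workflow and deposited counts per gene. The statement on the data calls them normalized, but the values are whole numbers with unequal totals and were used as raw counts. The versions of STAR and DESeq2 and the gene annotation are not given in the sources used here. No value column was left unused (0).

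Groups were assigned from the sample labels and compared pair by pair by a quasi-likelihood F test with robust estimation in edgeR 4.0.16 (R 4.3.3), after filterByExpr and TMM, with Benjamini-Hochberg adjustment over all tested genes and a call at an adjusted p under 0.05. Standard errors were derived from the F statistic. The prior count for log2 CPM was 2. DESeq2 1.42.0 was an alternative, with shares over genes that it gave an adjusted p, as were other scalings and filters, the replicate block and each library left out in turn. Scripts were tested on simulated data. P-values set a group difference against a spread between libraries that was estimated with information shared across genes. Limits from 3 counts cover counting error only. Totals of 15205930 to 22856922 counts a library set the precision. Coordinates, exon lengths and overlaps came from the GENCODE M21 annotation of GRCm38, by symbol.

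Other pathway genes were named if called in any pair, otherwise the 2 of a list with the largest log2 fold change in size between light and control, with Npas2, Ciart, Tef and Usp2 always. The clock genes, lists and tests were chosen with earlier results of these data known. Marker lists for rods, microglia, Mueller glia, reactive glia, corneal epithelium, pigment epithelium and inner retinal neurons were written from general knowledge.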

Additional observations from a re-analysis of the deposited data

How the results depend on the processing

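The number of clock genes called between light and control, 1, was 0 with a fold cutoff of 2 on the log2 scale, 2 with scaling by total counts (Per2 and Dbp), and 3 with the upper quartile, without a filter or with the replicate block (Arntl, Per2 and Dbp), and it ranged from 0 to 2 with a library left out. Of all genes, 11.3% were called, and 2.92%, 14.4%, 12.3%, 12.6% and 17.6% in the order of these settings, and 0.0269% to 14.5% with a library left out. Between minocycline and light, 0 became 1 (Per2) with DESeq2 or without a filter (8.17% and 3.97% of all genes, from 0.0542%), and 0 to 1 with a library left out. Across the 3 groups, 0 became 2 (Arntl and Per2) without a filter or with the DESeq2 likelihood ratio test (8.04% and 12.0% of all genes, from 5.29%), and 0 to 1 with a library left out. Between minocycline and control it was 0 throughout. Replicate numbers pair no samples by the labels, and the differences of replicate 1 and 2 correlated across genes at r = -0.01 between control and light, so that the block is only a number shared. No paired analysis was possible for minocycline because both its columns carry the same replicate number.

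The difference of the arms was -0.26 in control 1 and -0.091 in control 2 without Nr1d1, -0.27 and 0.044 without Nr1d1 and Dbp (chosen after seeing the data), and -0.081 in control 2 with Npas2 added. Signs turned in 28 of 663 alternatives for single genes and pathway counts, and in 0 of the gene and comparison pairs that were called. With scaling by total counts, light against control gave 0.079 for Clock, 0.052 for Cry1, 0.015 for Nr1d1, 0.19 for Nr1d2 and 0.18 for Sphk2, and minocycline against light -0.11 for Clock and -0.067 for Per1. With a library left out, light against control ranged from -0.14 to 0.27 for Per3, -0.13 to 0.25 for Cry2, -0.52 to 0.13 for Nr1d1, -0.13 to 0.029 for Nr1d2 and -0.21 to 0.098 for Sphk2. Minocycline against light ranged from -0.04 to 0.18 for Clock, -0.067 to 0.28 for Per1 and -0.56 to 0.20 for Dbp. Minocycline against control ranged from -0.28 to 0.014 for Arntl, -0.20 to 0.066 for Clock, -0.35 to 0.32 for Per2, -0.057 to 0.16 for Cry1, -0.023 to 0.73 for Dbp and -0.53 to 0.10 for Nr1d1. Without a turn of sign, light against control ranged from -0.45 to -0.097 for Per1, -0.28 to -0.035 for Clock and -0.30 to -0.071 for Cry1. A group reduced to 1 library was assumed to vary like the other. Where a call was lost or gained the cause was not tested, apart from the smaller number of libraries.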

Other observations

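The remaining marker lists gave the following summed levels. Reactive glia markers, 4 genes, lay at 36.3 to 65.3 CPM in control, 218 to 238 CPM in light and 49.2 to 62.2 CPM in minocycline libraries. After light, 3 of the 4 were called higher in edgeR, beside 7.52% of all genes. Pigment epithelium markers, 4 genes, lay at 586 to 629, 632 to 790 and 564 to 632 CPM in the same order. In edgeR 0 of the 4 were called after light, beside 11.3% of all genes, and 0 between minocycline and control, beside 0.162%. Their median log2 fold change was -0.37 after light and -0.73 between minocycline and control, opposite in sign to the rise of the sum in light 2. Rlbp1, 1 of the 4, is also a Mueller glia marker. Markers of inner retinal neurons, 5 genes, lay at 209 to 271, 258 to 268 and 237 to 378 CPM. Of the 6 rod markers 1 was called lower after light, beside 3.80% of all genes, and of the 6 microglial markers 2 were called higher, beside 7.52%. Their median log2 fold changes were -0.86 and 3.54.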
